A study of Mus musculus with 9 samples.

Results

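Asns encodes asparagine synthetase, the enzyme that makes asparagine from aspartate with an amide group taken from glutamine. It was followed here through its 2 probe sets, of 22690 on the array, in 9 Affymetrix expression arrays of mouse regulatory T cells, which restrain other immune cells. It is 1 of 12393 genes that the annotation names without ambiguity and 1 of the 7436 bright enough to be tested. It was chosen by its measured signals, as the gene with the largest rise shared by both Sirt1 knockouts, so its differences from wild type are a description and carry no test. The 3 groups hold 3 arrays each. One group is wild type, and the others are conditional knockouts of Sirt1, by a CD4 cre recombinase (CD4-cre) or by a Foxp3 cre recombinase (Foxp3-cre). All carry the strain label C57BL6. The cells of every group were separated magnetically by CD4 and CD25. CD4 drives the recombinase in T cells at large and Foxp3 drives it in regulatory T cells. The labels name no group with a recombinase and an intact Sirt1, so the 2 cannot be told apart here. No source used here gives age, sex or the number of mice behind a sample, and p-values therefore reflect only how far these arrays scatter, which may be technical scatter.

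T cells take asparagine from their surroundings or make it themselves, and protein synthesis after activation needs a supply. Asns is a classic target of the amino acid response. When an amino acid runs short, the kinase GCN2 (gene Eif2ak4) phosphorylates the initiation factor eIF2, general translation slows, and translation of the transcription factor ATF4 goes up. ATF4 then binds the Asns promoter, and the kinase PERK (Eif2ak3) can feed the same route under stress of the endoplasmic reticulum. Much of this control acts on ATF4 protein, which an array does not measure. Sirt1 encodes an NAD-dependent protein deacetylase.

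The promoter is shown because the response acts through it. In RefSeq, build GRCm38.p6, Asns lies on chromosome 6, minus strand. The 253 bases below, chr6:7693207-7693459, minus strand, run from 250 bases before the annotated start of the gene to just past it, and the capitals mark the nutrient-sensing response elements known from human ASNS, TGATGAAAC and GTTACA.
Asns: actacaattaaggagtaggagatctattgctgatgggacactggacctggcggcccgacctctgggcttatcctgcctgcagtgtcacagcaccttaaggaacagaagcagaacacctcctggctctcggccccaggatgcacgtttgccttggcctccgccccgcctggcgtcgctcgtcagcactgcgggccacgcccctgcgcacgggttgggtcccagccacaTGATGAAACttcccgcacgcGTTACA
The elements stand 11 bases apart and the first begins 23 bases before the start. The core TGATGNAA, searched on both strands, occurs in 4.0% of all 32851 RefSeq promoter windows of 300 bases, and GTTACA in 8.2%. The core followed by GTTACA on the same strand, starting within 30 bases of it, occurs in 7 windows, 0.0213%. The 2 motifs share no letters in the Asns window. A match is a description of the letters and not a site of binding.

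Whole-series facts that touch these values are few. Pairs of identical arrays numbered 0. Wild type replicate 2 stood apart: its correlation with the other arrays over all probe sets was 0.982 to 0.987, against 0.992 or more among the rest, and its 5' minus 3' log2 signal was -1.53 for beta-actin against -0.68 to -0.45 elsewhere. The 1 Sirt1 probe set had log2 signals of 7.91, 6.77 and 7.90 on the wild type arrays, 7.69, 7.59 and 7.59 with CD4-cre and 7.66, 7.54 and 7.47 with Foxp3-cre. It did not pass the limma test in either knockout with all arrays. Without wild type replicate 2 Sirt1 stood at -0.28 in CD4-cre (adjusted p = 0.0730) and fell by 0.35 in Foxp3-cre (adjusted p = 0.0301). No source used here says which part of Sirt1 was deleted, and probes outside that part check nothing. The labels set the genotypes in all that follows. Foxp3, the lineage factor of these cells, read 2.67, 3.38 and 2.83 in the libraries labelled Foxp3-cre, against 9.16 to 9.69 on the other arrays. The other 5 markers of regulatory T cells did not pass in limma in either knockout, and stood in Foxp3-cre at 0.12 for Il2ra, 0.15 for Ctla4, -0.03 for Tnfrsf18, 0.41 for Ikzf2 and 0.74 for Itgae (1 higher and 0 lower at an unadjusted p under 0.05). Of 5 T cell markers 0 passed the limma test in either knockout (0 higher and 1 lower at an unadjusted p under 0.05 in CD4-cre, 0 in Foxp3-cre), with a mean of 10.86 to 10.90 in wild type and 10.78 to 10.87 in the knockouts. By limma 0.229% of all genes rose and 0.430% fell in CD4-cre, and 1.69% rose and 1.67% fell in Foxp3-cre.

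Asns was at a low signal in wild type and far higher in both knockouts. Signals are log2 values made with RMA, the authors' normalization, so a difference of 1 is a doubling. On probe set 1451095_at, the brighter of the pair, wild type replicates 1, 2 and 3 read 4.78, 4.55 and 4.43. The CD4-cre replicates read 7.46, 7.50 and 6.99, and the Foxp3-cre replicates 7.39, 7.35 and 7.64. All 6 knockout arrays lay above all 3 wild type arrays, with a gap of 2.21 between the lowest knockout and the highest wild type value. The group means were 4.59 ± 0.18, 7.32 ± 0.28 and 7.46 ± 0.15 (SD, n = 3 arrays each). The difference from wild type was 2.73 (SE 0.15), or 6.64-fold, in CD4-cre and 2.87 (SE 0.15), or 7.32-fold, in Foxp3-cre. Both comparisons use the same wild type arrays.

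The second probe set, 1433966_x_at, gave lower signals and the same order of groups. In Affymetrix naming, the ending x_at marks a set with probes that can also match other transcripts. Its values were 3.43, 4.10 and 3.22 on the wild type arrays, 6.01, 6.24 and 5.50 with CD4-cre and 5.90, 6.12 and 6.34 with Foxp3-cre. Again the knockout and wild type arrays did not overlap, with a gap of 1.40. The group means were 3.58 ± 0.46, 5.92 ± 0.38 and 6.12 ± 0.22 (SD, n = 3 arrays each), and the differences from wild type were 2.34 (SE 0.25) or 5.05-fold in CD4-cre and 2.54 (SE 0.25) or 5.81-fold in Foxp3-cre.

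**Figure D1:**
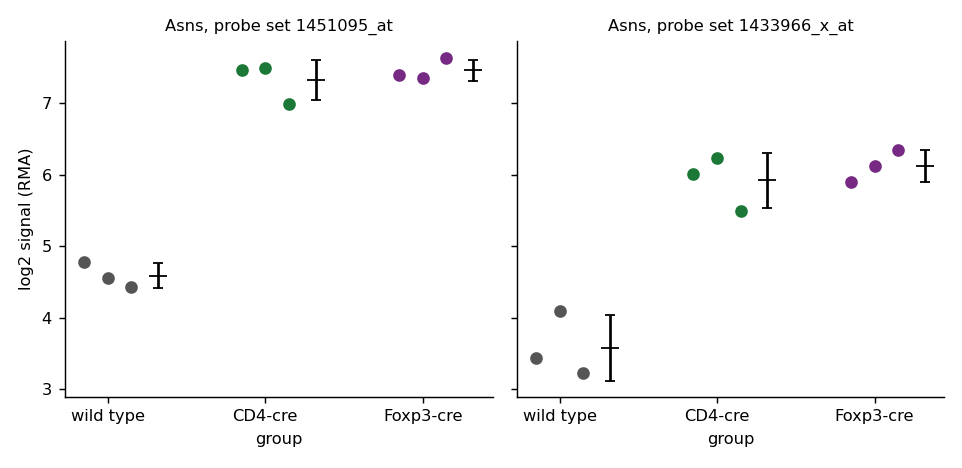
Log2 signal of Asns (vertical axis) on each array (points) of the 3 groups (horizontal axis), for each of its probe sets, with the group mean and SD (n = 3) as bars at the right of the points. On the brighter set the wild type arrays lie between 4.43 and 4.78 and the 6 knockout arrays between 6.99 and 7.64.

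The wild type signals were close to the dim end of the array. On the brighter set they exceeded 39.5 to 43.6% of the probe sets of their own array, and the knockout signals exceeded 68.0 to 76.2%. On the dimmer set the shares were 21.6 to 33.2% in wild type and 50.7% or more in the knockouts. The wild type mean of 4.59 also lies under 4.979, the mean signal that a gene needed to be tested. RMA compresses differences at such signals, so a fold against wild type may understate the change in RNA, and these files hold no detection calls. In bulk samples more cells with Asns RNA and more Asns RNA per cell cannot be told apart.

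The 2 probe sets moved together from array to array, apart from 1 array. The brighter set exceeded the dimmer by 1.21 to 1.49 on 8 arrays and by 0.46 on wild type replicate 2, where the dimmer set was at its highest in the group. After subtraction of the group means, both sets deviated in the same direction on 7 of 9 arrays, on 1 of them by less than 0.01 for the dimmer set, the exceptions being wild type replicates 1 and 2. CD4-cre replicate 3 was the lowest knockout array on both sets, by 0.33 and 0.42 under its group mean. Without wild type replicate 2 the differences on the brighter set were 2.71 with CD4-cre and 2.85 with Foxp3-cre.

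The knockouts are set side by side as a description too, since the choice of Asns by a rise in both used the values of both groups. Foxp3-cre minus CD4-cre was 0.14 (SE 0.15) on the brighter set and 0.20 (SE 0.25) on the dimmer. The arrays of the 2 groups overlapped. Without CD4-cre replicate 3 the difference on the brighter set turned to -0.02. From high to low the order of the group means was Foxp3-cre, CD4-cre and wild type, and the difference between the first and the second was smaller than its standard error.

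No other tested gene came near this rise. The lower of a gene's 2 differences from wild type was 2.73 for Asns and 1.20 for the next tested gene, Camp, an antimicrobial peptide of neutrophils. Ngp followed at 1.18 and Mpo at 1.15, both also genes of neutrophil granules. These 3 varied widely within groups, where Camp for example ran from 7.81 to 9.18 in wild type, and their CD4-cre arrays were not all above the wild type arrays except for Mpo. In all, 7 of 7436 tested genes had both differences above 1. This order depends on the filter. Over all 12393 genes Zfp991, too dim to be tested, came second to Asns, with differences of 2.21 and 2.06. The wild type mean of Asns, 4.59, is under 4.979 too, so its place among the tested genes leans on the knockout arrays.

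Among the tested genes those of neutrophils rank next to Asns, and their levels by array are set beside it. The mean of 10 neutrophil markers was 7.78 to 8.75 in wild type, 8.23 to 9.08 in CD4-cre and 9.16 to 10.14 in Foxp3-cre. Of the 10 markers 6 rose in Foxp3-cre by limma, beside 1.69% of all genes. In CD4-cre 0 rose, beside 0.229% of all genes, with 4 higher and 1 lower at an unadjusted p under 0.05. The lower marker was Csf3r, at -1.53 (limma adjusted p = 0.138), the largest difference of the 10 there. Cxcr2 was at -0.38 there and at 0.05 in Foxp3-cre, where Csf3r was at -0.33. Against wild type 7 of the 10 were higher in CD4-cre, while Foxp3-cre had 9 higher. Between the knockouts 0 of the 10 passed, with 8 higher and 0 lower at that p, beside 11.3% of all genes. Of the 6, Mpo and Elane had wild type means of 4.84 and 4.76, under the 4.979 needed for testing. Their place among the tested genes leans on the knockout arrays. The neutrophil means of CD4-cre and wild type overlapped. Replicate 3 had the highest neutrophil mean in every group, and of its group it had the lowest Asns on the brighter set in wild type and CD4-cre and the highest in Foxp3-cre. Plasma cell markers had means of 7.39 to 7.51 in wild type, 7.31 to 7.34 in CD4-cre and 7.04 to 7.51 in Foxp3-cre. B cell means were 5.95 to 6.61, 6.61 to 6.73 and 6.01 to 7.47, and monocyte and macrophage means 5.70 to 6.10, 5.36 to 6.43 and 6.03 to 7.36. Of these other lists only C1qb, a complement gene of macrophages, rose in Foxp3-cre, 1 of 5 tested monocyte and macrophage markers, beside 1.69% of all genes. Its wild type mean was 4.13 and its CD4-cre mean 4.94, both under the 4.979 needed for testing. The place of C1qb among the tested genes therefore leans on the Foxp3-cre arrays. Against wild type, CD4-cre had 2 of the 5 higher and Foxp3-cre had 4. The lowest was Ccr2, without passing (-0.75 in CD4-cre, -0.42 in Foxp3-cre). Natural killer cell means were 8.04 to 8.32, 7.44 to 7.92 and 7.56 to 7.98. Of 4 tested markers 1 fell in Foxp3-cre, beside 1.67% of all genes. It was Nkg7, a granule protein of these cells, which fell by 0.58 (limma adjusted p = 0.0235) and stood at -0.55 in CD4-cre. The share of other cells in the Asns signal was not tested.

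No tested gene that works with Asns passed the test for a rise without the replicate number as a block, and with it 1 gene did, Psat1 in Foxp3-cre. Of 192 other genes in 8 lists of its pathway, 155 were measured and 139 were bright enough to test, the threshold being an adjusted p of 0.05 (Benjamini-Hochberg, over all 7436 genes). In CD4-cre 0 of 139 rose and 0 fell, against a background over all genes of 0.229% up and 0.430% down. At an unadjusted p under 0.05 there were 6 higher and 14 lower, 14.4% of the 139 against 14.1% of all genes. In Foxp3-cre 0 rose and 3 fell, which is 2.16% down, against 1.69% up and 1.67% down over all genes, and 10 were higher and 13 lower at an unadjusted p under 0.05, 16.5% of the 139 against 21.3% of all genes. The counts of called genes are close to the background. With the replicate block 4 of the 139 passed in Foxp3-cre beside 4.76% of all genes. The block was fitted over all groups, including CD4-cre, whose arrays were not taken as paired by number. For wild type and Foxp3-cre a pairing has weak support, correlations of 0.2 to 0.25 between the deviations of same-numbered arrays from their group means. The highest difference among the 139 was 0.59 in either knockout, for Ddit4 in CD4-cre and for Psat1 in Foxp3-cre. The median difference of the 139 was -0.02 with CD4-cre and -0.01 with Foxp3-cre, beside 0.026 and 0.006 over all genes tested. Between the knockouts 0 of 139 passed, where the background was 0% up and 0.0134% down, with 5 higher and 10 lower at an unadjusted p under 0.05, 10.8% of the 139 against 11.3% of all genes.

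**Figure D2:**
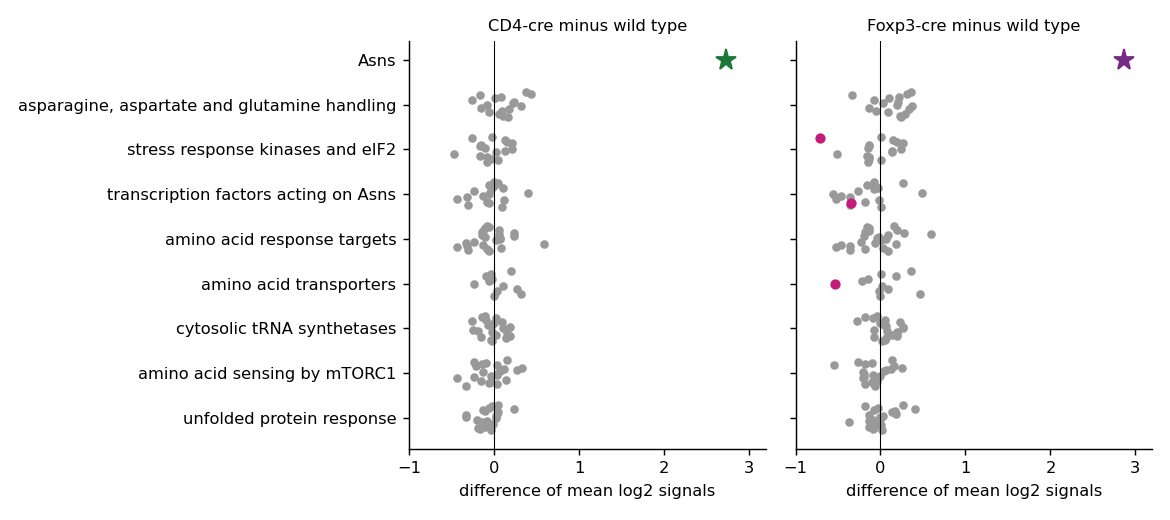
Difference of mean log2 signals from wild type (horizontal axis) for Asns (star) and for each tested gene of 8 pathway lists (points, 1 row per list), in CD4-cre (left) and Foxp3-cre (right), with called genes in magenta and the rest in grey. Asns stands at 2.73 and 2.87, and every other gene lies between -0.71 and 0.59.

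Among the enzymes that supply or use asparagine, aspartate and glutamine, 17 were tested and 0 passed in either knockout. At the shares of all genes given above, 0 of 17 is close to the background. Asnsd1, which carries an asparagine synthetase domain, stood at 0.18 (SE 0.12) in CD4-cre and 0.34 (SE 0.12, limma adjusted p = 0.153) in Foxp3-cre. Glul, glutamine synthetase, which makes the amide donor, stood at -0.26 and -0.08. Got1 and Got2, the aminotransferases that make aspartate, stood at 0.01 and 0.08 with CD4-cre and at 0.10 and 0.22 with Foxp3-cre. The largest differences were those of Nit2, an omega-amidase (0.44), and Ppat, which starts purine synthesis with glutamine (0.38), in CD4-cre, and of Cad, which starts pyrimidine synthesis (0.37), and Ppat (0.36) in Foxp3-cre. Without wild type replicate 2, Nit2 stood at 0.24 and Ppat at 0.11 in CD4-cre, and Ppat at 0.09 and Asnsd1 at 0.20 in Foxp3-cre, while Cad was at 0.32 and 0.36. Asrgl1, which breaks down asparagine, was at -0.15 and -0.13. The median of these enzymes was 0.09 for CD4-cre and 0.21 for Foxp3-cre.

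Of the stress response kinases and the eIF2 machinery, 17 were tested and 1 fell in Foxp3-cre, beside 1.67% of all genes. Eif2ak4, the sensor of missing amino acids, stood at 0.13 (SE 0.09) in both knockouts, and Eif2ak3 at 0.02 and 0.14. Eif2ak2, the kinase that responds to double-stranded RNA, stood at -0.47 with CD4-cre and -0.51 with Foxp3-cre without passing (adjusted p = 0.321 and 0.174), and Ppp1r15a was next in CD4-cre at -0.26. Eif2ak2 was highest on wild type replicate 2, at 6.57. Without that array Eif2ak2 stood at -0.30 and -0.34, and Ppp1r15a at -0.43 in CD4-cre. Ppp1r15a encodes the phosphatase subunit GADD34, which reverses eIF2 phosphorylation. It read 10.89, 10.48 and 11.08 on the wild type arrays, 10.60, 10.56 and 10.53 with CD4-cre and 9.87, 10.26 and 10.21 with Foxp3-cre. All Foxp3-cre arrays lay under all wild type arrays. It fell by 0.71 in Foxp3-cre (SE 0.15, limma adjusted p = 0.0425).

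Of 17 transcription factors that act on Asns or with ATF4, 1 fell in Foxp3-cre, beside 1.67% of all genes, and it was Atf4 itself. Atf4 read 10.64, 10.60 and 10.68 on the wild type arrays, 10.64, 10.58 and 10.51 with CD4-cre and 10.22, 10.30 and 10.33 with Foxp3-cre. The Foxp3-cre arrays were below all others, while the CD4-cre arrays overlapped wild type. It fell by 0.35 in Foxp3-cre (SE 0.07, limma adjusted p = 0.0358; 0.0549 with the replicate block) and stood at -0.06 in CD4-cre. Between the knockouts the difference was -0.29 (adjusted p = 0.232), so they are not shown to differ. Another bright Atf4 probe set stood at -0.60 with CD4-cre and -0.56 with Foxp3-cre and a dim one at -0.14 and 0. None of the other factors passed in the main fit. Cebpb, a partner of ATF4 at such elements, was at -0.43 and -0.52, Cebpg at -0.32 and -0.36, and Ddit3, the stress factor CHOP, at -0.13 and -0.47. Jun, a subunit of AP-1, stood at -0.06 in CD4-cre and had the largest difference of the list in Foxp3-cre, -0.56 (adjusted p = 0.138). Without wild type replicate 2 Jun stood at -0.32 in CD4-cre and fell in Foxp3-cre by 0.82 (adjusted p = 0.00324), and Foxp3-cre minus CD4-cre was -0.50 (adjusted p = 0.0387). Zbtb1, a zinc finger factor needed for ASNS induction in human leukaemia cells, stood at 0 in CD4-cre (SE 0.14) and -0.08 in Foxp3-cre. Myc, a driver of growth and metabolism in activated T cells, stood highest, at 0.40 (adjusted p = 0.474) and 0.49 (adjusted p = 0.268). Its wild type arrays read 8.74, 7.66 and 8.66, so replicate 2 was lower than every other array, and without it Myc stood at 0.05 and 0.15.

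Of the targets that the amino acid response switches on together with Asns, 24 were tested and 0 passed. At the shares of all genes given above, 0 of 24 is close to the background. In serine and one-carbon synthesis, Psat1, a transaminase, read 8.20, 7.67 and 7.86 on the wild type arrays, 7.95, 8.07 and 7.88 with CD4-cre and 8.81, 8.27 and 8.41 with Foxp3-cre. Its Foxp3-cre arrays were all above wild type, by a mean of 0.59 (SE 0.16, limma adjusted p = 0.0854; 0.0471 with the replicate block), and its CD4-cre difference was 0.06. Phgdh, the first enzyme of the route, stood at -0.14 and 0.09, Shmt2 at 0.06 and 0.20, and Mthfd2, a mitochondrial folate enzyme, at -0.10 and -0.02. Trib3, a pseudokinase that feeds back on ATF4, stood at -0.06 and -0.16. Chac1, a glutathione-degrading enzyme, was too dim to be tested, with differences of -0.21 and -0.28. Ddit4, an inhibitor of mTORC1, had the largest difference in CD4-cre, 0.59 (SE 0.24, adjusted p = 0.321), and stood at 0.18 in Foxp3-cre. Cebpb, itself also a target, came next in size in both knockouts. The medians of the targets were -0.08 and -0.05.

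Amino acid transporters held 11 tested genes, of which 1 fell in Foxp3-cre, beside 1.67% of all genes. Slc38a2, the adaptive transporter of neutral amino acids SNAT2 and a further ATF4 target, read 10.25, 10.31 and 10.64 on the wild type arrays, 10.21, 10.12 and 10.14 with CD4-cre and 9.88, 9.94 and 9.79 with Foxp3-cre. Both knockouts lay under wild type on every array, and the call was made in Foxp3-cre, where it fell by 0.53 (SE 0.11, limma adjusted p = 0.0329), while CD4-cre stood at -0.24 (adjusted p = 0.352). Slc1a5, a glutamine importer, stood at 0 with CD4-cre and -0.01 with Foxp3-cre. Slc7a5 and Slc3a2, which pair as a carrier of large neutral amino acids, stood at -0.09 and -0.06 with CD4-cre and at 0.18 and -0.22 with Foxp3-cre. Slc25a13, an aspartate and glutamate carrier of mitochondria that is also a neighbour of Asns on the chromosome, had the highest differences, 0.32 and 0.47, without passing, and Slc38a1, a glutamine importer, followed in CD4-cre at 0.27. Slc7a11, a cystine importer, was too dim to be tested, at 2.56, 2.87 and 2.59.

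The calls of Ppp1r15a, Atf4 and Slc38a2 were fragile. Of the 9 fits that each left out 1 array, 1 kept the call of Ppp1r15a, 2 that of Atf4 and 2 that of Slc38a2. In the fit without wild type replicate 2, all 3 were called and 9 of the 139 fell in Foxp3-cre, with 0 rising, while 7.63% of all genes were called in either direction. With the replicate block the calls of Ppp1r15a (adjusted p = 0.0460) and Slc38a2 (adjusted p = 0.0434) held. In the fit without that array 1 gene, Nfe2l2, a factor of the oxidative stress response, fell in CD4-cre, beside 2.57% of all genes called.

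The remaining lists that touch amino acid supply held 0 called genes in either knockout by limma. In lists of this size 0 is close to the shares of all genes given above. Of 21 tested cytosolic tRNA synthetase genes, which load amino acids onto tRNA, Nars, the one for asparagine, stood at -0.07 and 0.04. The largest differences were -0.26 for Sars and -0.25 for Hars in CD4-cre, and -0.28 for Sars and 0.27 for Iars in Foxp3-cre. Of 22 genes of amino acid sensing by mTORC1, the kinase complex that couples amino acids to growth, Lamtor5 at -0.43 and Eif4ebp1, a brake on translation that mTORC1 releases, at -0.33 differed most in CD4-cre, Sec13, of the GATOR2 complex, stood highest there at 0.33, and Sesn1, a leucine sensor, at -0.55 (adjusted p = 0.0510; 0.0251 with the replicate block) and Tsc1 at -0.26 in Foxp3-cre. Of 22 unfolded protein response genes, the chaperones Hyou1 and Hsp90b1, both at -0.33, differed most in CD4-cre, and Sdf2l1 at 0.41 and Dnajb9 at -0.37 in Foxp3-cre. Hspa5, the main chaperone of that response, was at 0.02 and 0.03. For some of these genes the choice of probe set mattered. A Lamtor5 set almost as bright (mean 9.38 against 9.46) lay above wild type in both knockouts, by 0.31 and 0.19. With CD4-cre, another Eif4ebp1 set stood at -0.03 and a dimmer Hars set at 0.15. The other sets of Sars and Hsp90b1 kept the sign there, at -0.14 and -0.17. At an unadjusted p under 0.05, CD4-cre had 2 synthetases, 4 sensing genes and 3 unfolded protein response genes lower and 0 higher, and Foxp3-cre had 3 synthetases higher and 1 lower, 3 sensing genes lower and 1 unfolded protein response gene higher. Over all genes 14.1% were below that p in CD4-cre and 21.3% in Foxp3-cre, so the counts say nothing particular about these lists. Without wild type replicate 2, Hars stood at -0.05, Hyou1 at -0.15 and Sars at -0.14 in CD4-cre, while Sars stood at -0.16 and Iars at 0.13 in Foxp3-cre, where Dnajb9 passed at -0.61 (limma adjusted p = 0.0285).

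Several pathway genes carry the same core in their promoter and can be set beside Asns. Of the 155 genes of the lists with a RefSeq promoter window, 21 held TGATGNAA on either strand, 13.5%, against 4.5% of all 27025 genes with a window. The lists name known targets, so this share is not independent of how they were made. Examples follow from RefSeq, GRCm38.p6, read on the strand that shows the core in capitals.
Chac1 (chr2:119351039-119351065, minus strand): tggcaggagTGATGCAAcggcagggaa
Trib3 (chr2:152344030-152344056, plus strand): ccgcccggcTGATGTAAacctgagcta
Atf3 (chr1:191183427-191183453, plus strand): cggacttggTGATGCAAgtgcgagaag
Slc7a11 (chr3:50443644-50443670, plus strand): gctgcatgaTGATGCAAattctccagg
Gars (chr6:55037961-55037987, minus strand): cccggtgcaTGATGAAAtagcgcagcc
Atf3 and Trib3, transcriptional regulators of the stress response, stood at -0.30 and -0.06 with CD4-cre and at -0.36 and -0.16 with Foxp3-cre. Gars, glycyl-tRNA synthetase, stood at -0.19 and 0.08, and Chac1 and Slc7a11 are given above. Of the genes with the core 20 were measured and 14 tested. Of these 0 passed in limma in either knockout, close to the shares of all genes given above. Their differences ran from -0.37 to 0.30 in CD4-cre and from -0.36 to 0.36 in Foxp3-cre. Over all 165 tested genes with the core in a promoter, Asns left out, the median difference was -0.004 with CD4-cre and -0.008 with Foxp3-cre, beside 0.028 and 0.006 in 5947 tested genes whose windows lack it.

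The genes around Asns on the chromosome are set beside it. The 10 genes with a probe set nearest to it on each side, in RefSeq order, included 10 that could be tested, and 0 of them passed in either knockout. At the shares of all genes given above, 0 of 10 is close to the background. Their differences ran from -0.24 to 0.49 in CD4-cre, with a median of 0.15, and from -0.19 to 0.47 in Foxp3-cre, with a median of 0.16. The medians over all genes tested were lower, at 0.026 and 0.006. On one side the nearest were Tac1, a neuropeptide precursor, and Dlx5, a homeobox factor of bone and brain, both too dim to be tested. On the other side C1galt1, a glycosyltransferase, stood at 0.12 and 0.07, and Mios, a subunit of the amino acid sensing complex GATOR2, at -0.24 and -0.19. Glcci1 had the largest difference, 0.49 in CD4-cre (limma adjusted p = 0.0674).

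**Figure D3:**
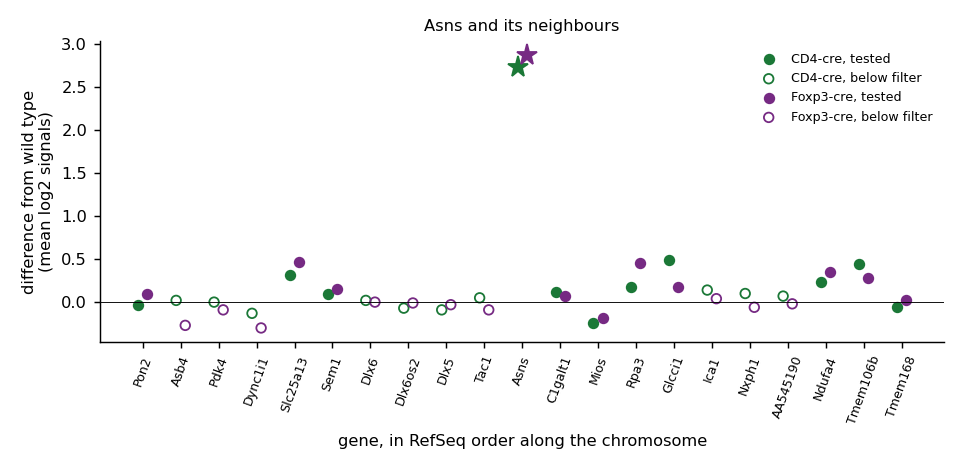
Difference of mean log2 signals from wild type (vertical axis) for Asns (stars) and the 10 nearest genes with a probe set on each side in RefSeq order (horizontal axis), in CD4-cre (green) and Foxp3-cre (purple), with genes too dim to test as open circles. Asns stands at 2.73 and 2.87 while the tested neighbours lie between -0.24 and 0.49.

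The 6 tested genes most like Asns over the 9 arrays lay outside the pathway lists. Likeness was Pearson's r of a gene's log2 signals with those of Asns, given as a description with no p, since 3 low and 6 high arrays set most of it. Cap1, a regulator of actin filaments, was the most like, with r = 0.976. It read 9.65, 9.33 and 9.73 on the wild type arrays, 10.77, 10.74 and 10.59 with CD4-cre and 10.75, 10.92 and 10.97 with Foxp3-cre. Cap1 stood at 1.13 (SE 0.12) with CD4-cre and at 1.31 (SE 0.12) with Foxp3-cre. The genes most like or most opposed to Asns were picked over the same arrays, largely by this contrast. Their differences from wild type are therefore a description and carry no test. Both knockouts were above wild type on every array.

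Next in likeness came Ndufa8, a subunit of respiratory complex I (r = 0.971), Borcs7, of a complex that positions lysosomes (0.967), Pik3cg, the catalytic subunit of PI3-kinase gamma (0.966), Itgb1bp1, which binds the integrin beta-1 tail (0.960), and Wdtc1, a WD repeat protein (0.958). Pik3cg stood at 0.65 and 0.66 and Wdtc1 at 0.77 and 0.70 in CD4-cre and Foxp3-cre. Borcs7 stood at 0.39 and 0.41 and Itgb1bp1 at 0.25 and 0.33. Ndufa8 stood at 0.26 in both. The most opposed were Ifi209, an interferon-inducible gene (r = -0.979), Ide, the insulin-degrading enzyme (-0.976), Nfx1, a zinc finger factor (-0.976), and Scml4, a Polycomb-related gene (-0.973). In CD4-cre and Foxp3-cre Scml4 stood at -0.69 and -0.65, Ifi209 at -0.38 and -0.46, Ide at -0.46 and -0.50 and Nfx1 at -0.12 and -0.13. Of 7435 other tested genes, 32 had an r above 0.9 and 53 one below -0.9. Of the 139 pathway genes 0 had an r above 0.9, the highest being Cad with 0.81 at place 174. That 0 is close to the share over all genes and says nothing particular about the pathway. After subtraction of the group means, r was 0.37 for Cap1, 0.56 for Ndufa8, -0.02 for Borcs7, 0.40 for Pik3cg, 0.80 for Itgb1bp1 and -0.11 for Wdtc1. It was -0.06 for Ifi209, -0.46 for Ide, -0.58 for Nfx1 and -0.76 for Scml4.

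**Figure D4:**
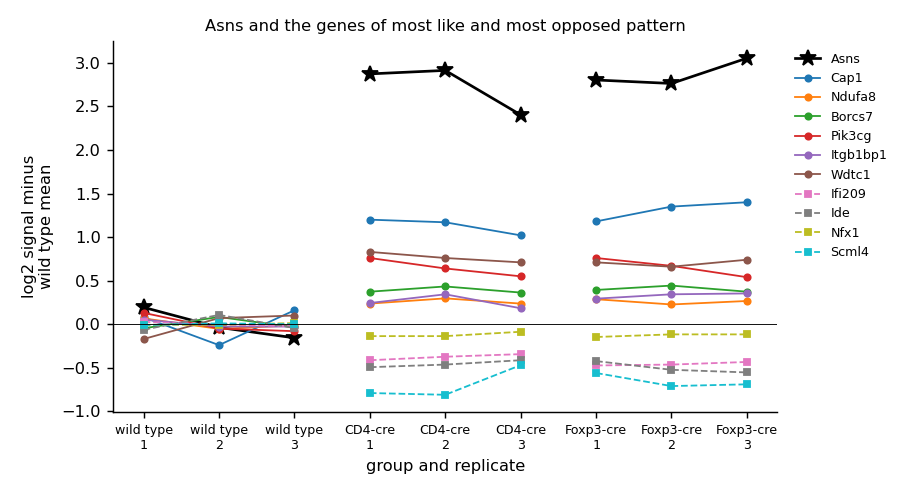
Log2 signal minus the wild type mean of each gene (vertical axis) on the 9 arrays (horizontal axis, lines joining arrays of a group for reading only) for Asns (stars), the 6 tested genes most like it (circles) and the 4 most opposed (squares). Asns rises furthest, by means of 2.73 and 2.87, and Cap1, the most like it, by 1.13 and 1.31.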

How the data were processed

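The arrays measured total RNA of CD4+CD25+ cells, 3 arrays in each of 3 groups, which the labels set. The deposited values are log2 signals that the authors made with RMA, per the submitters' processing notes, with 1 signal for a probe set on an array; no source used here gives the RMA version or a genome build. Values ran from 1.57 to 14.06. Of 22690 probe sets, 64 controls were left out, 20380 carried 1 gene symbol, 691 several and 1555 none by the platform annotation, and 20351 symbols matched RefSeq (GRCm38.p6) by gene ID. Each gene was represented by its probe set with the highest mean, and genes whose mean reached 4.979, the 40th percentile, were tested. Differences were fitted with limma 3.58.1 in R 4.3.3 (lmFit, eBayes, 6 residual and 3.37 prior degrees of freedom, two-sided, all 3 groups in 1 fit), with Benjamini-Hochberg adjustment over 7436 genes. An exact permutation test of 3 against 3 cannot pass, so none was run. The code was tested on simulated data. The difference of Asns between the knockouts, planned as a test, is given without one because the choice of the gene used both groups. The number of arrays limits the precision.

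Asns, the pathway lists, the markers and the tests were chosen with earlier results of these data known. Named genes are Asns, the 3 that follow it in shared rise, the 6 most and 4 least like it, from each list those called or else the 2 of largest difference, a fixed set of pathway genes, and the nearest 2 neighbours on each side; Got1, Got2, Asrgl1, Sec13, Cebpg, Hspa5, Glcci1 and the genes named for their promoters were added after their values were seen. Alternatives were single arrays left out, the other probe set, repeated quantile normalization, array weights, other filters, probe set means, trended and robust moderation, 2-group fits and the replicate number as a block. Same-numbered arrays of wild type and Foxp3-cre deviated together in 3 of 3 pairs (correlations of 0.20 to 0.25, above 0.1), so the numbers, which come from the labels, were taken to pair that comparison and its blocked values are given where a call changes. In the other comparisons 2 of 3 pairs passed 0.1, and the lowest correlations were -0.01 and -0.03, so those were not taken as paired. The block was nevertheless fitted over all groups at once. The blocked values for Foxp3-cre are thus not those of a fit of wild type and Foxp3-cre alone, and the pairing itself is weakly supported.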

Additional observations from a re-analysis of the deposited data

Results flagged for a closer look

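Foxp3 differed between the knockouts by -6.70 on the log2 scale (Foxp3-cre minus CD4-cre), the 1 gene that limma called in that comparison; the same difference of Asns was 0.14.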

How the results depend on the processing

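With 1433966_x_at in place of the brighter set, the Asns differences moved to 2.34 in CD4-cre and 2.54 in Foxp3-cre; under every other alternative run they stayed within the spread of the replicates. Counts of called genes moved far more. With 1 array left out, they ran from 4 (without CD4-cre replicate 2) to 191 (without wild type replicate 2) in CD4-cre, from 71 (without Foxp3-cre replicate 3) to 567 (without wild type replicate 2) in Foxp3-cre and from 1 to 72 (without wild type replicate 2) between the knockouts, against 49, 250 and 1. Called pathway genes ran from 0 to 1, 0 to 9 and 0 to 2, against 0, 3 and 0. Array weights gave 1298, 1539 and 812 genes, with 26, 26 and 14 of the pathway, in CD4-cre 10 up and 16 down, 18.7% beside 17.5% of all genes, and in Foxp3-cre 8 up and 18 down, 18.7% beside 20.7%. Fits of the 2 groups compared gave 22, 16 and 55 genes, with 0 of the pathway in Foxp3-cre. Without a filter 1 pathway gene was called in Foxp3-cre, the 60th percentile filter gave 29 genes in CD4-cre, and a second quantile normalization 5 between the knockouts. Between the knockouts, a comparison not taken as paired, the replicate block gave 96 genes, 1.29% of those tested. It gave 1 pathway gene there, Sesn1 (-0.58, limma adjusted p = 0.0400). The block changed no pathway call other than those of Atf4, Psat1 and Sesn1. An array's deviations correlated best with its own number in 12 of 18 comparisons. The causes were not tested. Signal near the floor of the array limits the fold of Asns against wild type.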

Other observations

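One gene too dim for testing came second to Asns in shared rise over all 12393 genes, named after its values were seen. Zfp991, a zinc finger gene, had wild type signals of 3.43, 3.47 and 3.13, CD4-cre signals of 5.58, 5.40 and 5.68 and Foxp3-cre signals of 5.25, 5.59 and 5.36, differences of 2.21 and 2.06. The knockout arrays lay above all wild type arrays. The other tested genes with both differences above 1, beyond those named in the report, were Mtmr9, of the myotubularin family, at 1.10 and 1.49, and 2610005L07Rik at 1.07 and 1.18. Mtmr9 varied within the knockouts, from 7.23 to 8.20 with CD4-cre and from 7.74 to 8.81 with Foxp3-cre, and 2610005L07Rik was lowest on wild type replicate 2, at 8.32 against 9.42 and 9.54.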
